A study of Homo sapiens with 9 samples.

Results

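Small nucleolar RNAs (snoRNAs) and small Cajal body RNAs (scaRNAs) are short noncoding RNAs that steer chemical modification of other RNAs. They were followed here in human cells made to express a circular or a linear transcript of the SMN genes. Members were the genes of biotype snoRNA or scaRNA in the GENCODE annotation with at least 45 raw counts summed over the 9 libraries, which gave 149 genes of the 37838 with any count. By biotype 140 of them were snoRNAs and 9 scaRNAs, and by symbol 54 were box C/D RNAs (SNORD), 59 box H/ACA RNAs (SNORA), 11 scaRNAs (SCARNA) and 25 carried other names. Members were thus selected on biotype and summed counts alone, with no use of any difference between the lines. Members just inside the limit were SNORA2C with 45 counts and SNORD58 with 47, and those just outside it were a U3 copy with 44 and SNORA14A with 43.

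The 3 lines derive from HEK293, an established human embryonic kidney line. TC4-2A cells overexpress a circular RNA that joins exons 2A to 4 of the SMN genes. TL4-2A cells overexpress a linear RNA of the same exons, and the T-REx control overexpresses neither. All 3 received doxycycline, the inducer, at 0.1 µg/mL for 96 h, and each gave 3 libraries of total RNA after rRNA depletion. The sources used here do not give whether each line is 1 clone or whether its libraries are separate cultures. The p-values therefore speak only for the spread among these 9 libraries, which may be technical. In bulk libraries a lower level can mean fewer cells with an RNA or less of it per cell, and these cannot be told apart.

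Box C/D RNAs pair with a target RNA and direct 2′-O-methylation by fibrillarin, whereas box H/ACA RNAs direct pseudouridylation by dyskerin. Their main target is ribosomal RNA in the nucleolus, while scaRNAs act on spliceosomal snRNAs in Cajal bodies, where the SMN protein is also found. A few members, such as U3, U14 and U17, serve cleavage or folding of the ribosomal precursor instead. Most human snoRNAs are cut out of introns of host genes after splicing, and U3 and U13 have promoters of their own.

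The members on which the results turn are given as annotated in GENCODE on GRCh38, 5′ to 3′ in DNA letters. Capitals mark the box motifs where a search found them on the RNA strand: TGATGA within the first 26 bases (the end of box C), CTGA within the last 16 (box D), and ACA exactly 3 bases from the end. SNORA73B (U17b, chr1:28508559-28508762, + strand), SNORA23 (chr11:9428773-9428954, + strand) and SNORA38 (chr6:31623079-31623210, + strand) are box H/ACA RNAs in introns of RCC1, IPO7 and PRRC2A, and SCARNA1 (chr1:27834401-27834566, + strand) is a box H/ACA scaRNA in an intron of PPP1R8. All 4 were lower in TL4-2A cells.
SNORA73B: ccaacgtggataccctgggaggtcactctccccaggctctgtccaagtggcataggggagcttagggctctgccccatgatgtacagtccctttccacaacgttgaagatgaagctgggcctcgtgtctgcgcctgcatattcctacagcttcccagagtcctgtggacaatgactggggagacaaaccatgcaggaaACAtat
SNORA23: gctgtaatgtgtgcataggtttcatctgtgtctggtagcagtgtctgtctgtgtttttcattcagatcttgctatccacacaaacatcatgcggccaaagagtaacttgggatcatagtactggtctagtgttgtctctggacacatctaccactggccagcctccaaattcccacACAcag
SNORA38: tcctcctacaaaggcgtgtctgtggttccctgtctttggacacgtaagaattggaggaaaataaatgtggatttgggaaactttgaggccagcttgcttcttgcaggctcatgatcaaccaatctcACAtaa
SCARNA1: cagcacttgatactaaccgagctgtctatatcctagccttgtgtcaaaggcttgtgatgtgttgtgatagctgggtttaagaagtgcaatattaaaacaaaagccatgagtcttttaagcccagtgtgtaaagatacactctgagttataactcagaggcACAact

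SNORD104 (chr17:64146083-64146152, + strand, in SNHG25), SNORD11 (chr2:202293051-202293134, + strand, in NOP58) and SNORD14E (a U14 copy, chr11:123058077-123058161, − strand, in HSPA8) are box C/D RNAs that were higher in TL4-2A cells. SNORD89 (chr2:101272936-101273049, − strand, overlapping an exon of RNF149) was lower there.
SNORD104: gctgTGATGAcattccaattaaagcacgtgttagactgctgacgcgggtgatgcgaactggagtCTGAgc
SNORD11: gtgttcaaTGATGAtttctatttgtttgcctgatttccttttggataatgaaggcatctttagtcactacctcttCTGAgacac
SNORD14E: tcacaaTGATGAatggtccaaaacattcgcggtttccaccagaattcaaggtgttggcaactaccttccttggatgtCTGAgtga
SNORD89: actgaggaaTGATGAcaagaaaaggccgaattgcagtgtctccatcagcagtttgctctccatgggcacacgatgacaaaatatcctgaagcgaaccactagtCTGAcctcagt

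SCARNA5 (U87, chr2:233275727-233276002, + strand) and SCARNA6 (U88, chr2:233288676-233288940, + strand) are composite scaRNAs that hold box C/D and box H/ACA elements together. Both lie in introns of ATG16L1, an autophagy gene, and they are shown because they had the smallest adjusted p between TC4-2A and TL4-2A cells.
SCARNA5: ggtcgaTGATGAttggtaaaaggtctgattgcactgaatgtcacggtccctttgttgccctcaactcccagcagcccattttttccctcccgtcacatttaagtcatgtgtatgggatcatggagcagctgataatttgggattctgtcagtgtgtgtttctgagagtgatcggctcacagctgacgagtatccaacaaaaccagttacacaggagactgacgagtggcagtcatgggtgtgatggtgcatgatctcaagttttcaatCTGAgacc
SCARNA6: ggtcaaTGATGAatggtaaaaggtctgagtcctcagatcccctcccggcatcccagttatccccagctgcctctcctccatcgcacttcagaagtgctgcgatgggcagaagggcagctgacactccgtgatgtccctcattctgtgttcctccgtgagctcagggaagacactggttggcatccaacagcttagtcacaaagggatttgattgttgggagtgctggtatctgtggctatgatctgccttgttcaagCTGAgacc

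Both TGATGA and CTGA stood at these places in 31 of the 54 box C/D members (57.4%) and in 0 of the 59 box H/ACA members. ACA stood 3 bases from the end in 42 of the 59 box H/ACA members (71.2%) and in 2 of the 54 box C/D members (3.7%). Over all 991 snoRNA and scaRNA genes of the count table the shares were 22.3% for the TGATGA and CTGA pair and 30.8% for ACA. The symbols and the sequences of the 2 main classes therefore went together, and variants of these letters were not searched.

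The libraries held 16561680 to 21491977 counts, of which the 149 members took only 0.0547% to 0.0730%. Summed snRNA levels were 1226, 1140 and 612 CPM (counts scaled to a common library total) in the TC4-2A libraries, 522 to 562 CPM in TL4-2A and 657 to 767 CPM in T-REx. The library in which a tested member was highest within its line was TC4-2A 1 for 58 of 109 members (53.2%, against 35.1% of all genes tested) and T-REx 3 for 54 (49.5%, against 32.5%). What part these library differences play in the results below was not tested. SMN1, which the transgene's exons match, was at 75.4, 71.9 and 77.0 CPM in TC4-2A, 42.6, 41.3 and 44.1 CPM in TL4-2A, and 36.3, 39.1 and 39.8 CPM in T-REx cells, and its near-identical copy SMN2 can share its reads. A list of 6 genes known from HEK293 cells was detected in every library and summed to 631 to 870 CPM, with VIM at 455 to 576 CPM and its lowest gene, NEFM, at 1.29 to 2.92 CPM. Fibroblast markers summed to 7.86 to 11.3 CPM, through COL1A1, while DCN and LUM stayed at 0.285 CPM or less. Leukocyte, hepatocyte and keratinocyte markers summed to 0.365 CPM or less, with KRT14 at 0.

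Genes that lie within exons of other genes were mostly without counts. Of 248 snoRNA and scaRNA genes that overlap a same-strand exon of another gene, 224 (90.3%) had 0 counts in all libraries and 6 (2.42%) were members. Of the 743 others 454 (61.1%) had 0 counts and 143 (19.2%) were members. U8 (SNORD118), U17a (SNORA73A), SNORD14B, SNORD14C, SNORD14D, SCARNA2, SCARNA12, SCARNA13, SCARNA16 and SCARNA17 all overlap such an exon and were listed at 0. Among the members, 25 share a stretch of 40 bases with another snoRNA or scaRNA gene, so that reads could be split between copies. SNORA73B is one of these, sharing with SNORA73A, and the U3 genes and SNORD62B are others. Most members lie within a longer same-strand gene, whose unspliced RNA could add reads to them, which was not tested. TERC, the telomerase RNA, is annotated as a lncRNA, had 33 counts and was no member.

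Levels spanned a wide range. Per kilobase of annotated length, over the 9 libraries, SNORA73B averaged 571 CPM per kb and SCARNA7 (U90, a guide for U1 snRNA) 363 CPM per kb. SNORA74A (U19) followed with 226, SNORA53 with 154, SNORD17 with 145 and SNORA23 with 102 CPM per kb. SNORD46, ENSG00000201592 (in EIF1AX), SNORA12, SNORD13 (U13), SCARNA21 and SCARNA6 made up the 12 highest, at 83.1 to 42.8 CPM per kb. The 5 members with the most counts held 56.8% to 61.6% of the members' CPM in each library, and 83 members averaged under 1 CPM. A filter on low counts left 109 members for testing, and the 40 left out averaged 0.267 to 0.451 CPM. Tested members had a median of 1.38 CPM, against 14.6 CPM for all 19473 genes tested.

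In TC4-2A cells compared with T-REx cells SNORA23, SNORA73B and SCARNA7 fell, and SNORD104 and SNORA74A rose. With DESeq2, an alternative test, SNORA73B and SCARNA7 did not pass (adjusted p = 0.325 and 0.0801). The SNORA73B and SNORA74A calls were also lost when some single libraries were left out, as given below. At an adjusted p under 0.05 (edgeR's quasi-likelihood test, Benjamini-Hochberg over all genes tested) 4 of 109 members rose and 9 fell, together 11.9%, against 28.8% of all genes tested (14.2% higher and 14.6% lower). Among the 36 members averaging at least 2 CPM, 10 passed (27.8%), against 35.4% of all genes at that level. Among the 73 members below 2 CPM 3 passed (4.11%), against 9.7% of all such genes. The members' share lay below that of all genes at both levels. This division does not match levels closely, since tested members had a median of 1.38 CPM and all genes tested 14.6 CPM. Genes at low levels passed less often, so the lower share is not read as a trait of the members. The same limit holds for this division in the comparisons below. The median log2 difference was −0.04 over the members and 0.00 over all genes.

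In TL4-2A cells compared with T-REx cells U13, U17b, SNORA23, SNORA38 and SCARNA1 fell, and SCARNA5, SCARNA6, SNORD11 and SNORD104 rose. By the same test 12 members rose and 14 fell, together 23.9% of 109, against 44.3% of all genes tested (21.9% higher and 22.5% lower). At 2 CPM or more 16 of 36 members passed (44.4%), against 52.5% of all genes. Below 2 CPM 10 of 73 passed (13.7%), against 20.7%. The median log2 difference was 0.06 over the members and 0.00 over all genes. All 11 members that differed more than 2-fold passed the test, whereas 3 members did so in TC4-2A cells. All genes likewise passed more often in TL4-2A than in TC4-2A cells (44.3% against 28.8%), and their share beyond 2-fold is not given here.

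**Figure D1:**
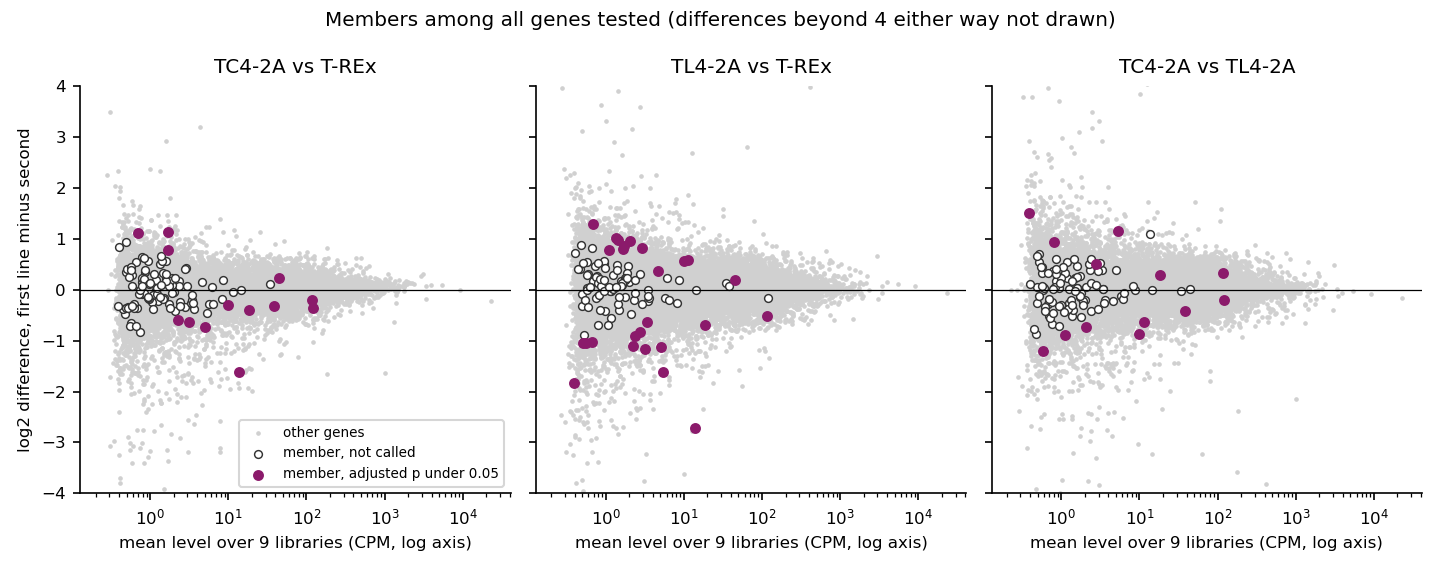
Log2 difference of every gene tested (first line minus second) against its mean level in CPM on a log axis, for the 3 comparisons; grey points are other genes, open circles members that did not pass, and filled circles members at an adjusted p under 0.05. Members sit mostly below 10 CPM, and more of them are filled in the TL4-2A panel (26) than in the TC4-2A panel (13). Over all genes tested, 44.3% and 28.8% passed in these comparisons.

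By class, box C/D members rose in 3 cases and fell in 2 of 47 tested in TC4-2A cells, and rose in 6 and fell in 6 in TL4-2A cells. Box H/ACA members rose in 1 and fell in 4 of 44 tested in TC4-2A cells, and rose in 3 and fell in 6 in TL4-2A cells. Of the 10 scaRNAs tested, 0 rose and 3 fell in TC4-2A cells, and 2 rose and 2 fell in TL4-2A cells. Over all genes tested 14.2% rose and 14.6% fell in TC4-2A cells, and 21.9% rose and 22.5% fell in TL4-2A cells. Median log2 differences from T-REx were 0.10 (box C/D), −0.16 (box H/ACA) and −0.30 (scaRNAs) in TC4-2A cells. They were 0.18, 0.01 and −0.09 in TL4-2A cells.

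Among the snoRNAs of ribosomal RNA processing, U17b fell in both lines. SNORA73B (ENSG00000200087.1) was at 141, 114 and 101 CPM in TC4-2A, 97.2, 91.7 and 96.5 CPM in TL4-2A, and 131, 129 and 149 CPM in T-REx cells. All TL4-2A libraries lay below all T-REx libraries, whereas TC4-2A 1 lay within the T-REx range. The log2 difference was −0.52 ± 0.06 (SE) in TL4-2A cells (adjusted p = 2.28e-08) and −0.20 ± 0.06 in TC4-2A cells (adjusted p = 0.0155). The TC4-2A call was lost without TC4-2A 2, TC4-2A 3 or T-REx 3 (log2 −0.17, −0.09 and −0.13, adjusted p = 0.0684, 0.243 and 0.198), and without TC4-2A 1 the difference was −0.34.

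U13 fell as well. SNORD13 (ENSG00000239039.1, with no host gene) guides acetylation of a base of the small ribosomal RNA. It was at 6.89, 3.42 and 3.01 CPM in TC4-2A, 3.03, 4.17 and 2.86 CPM in TL4-2A, and 7.37, 6.26 and 8.61 CPM in T-REx cells. TC4-2A 1 stood with the T-REx libraries, and the other 2 TC4-2A libraries with TL4-2A. The log2 difference was −1.12 ± 0.19 in TL4-2A cells (adjusted p = 1.02e-05) and −0.73 ± 0.18 in TC4-2A cells (adjusted p = 0.0016). Without TC4-2A 1 the TC4-2A difference was −1.19.

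The U3 genes, whose RNA is needed for the first cleavages of the ribosomal precursor, did not move together. SNORD3A was at 7.54, 6.84 and 2.53 CPM in TC4-2A, 2.79, 2.41 and 2.5 CPM in TL4-2A, and 6.84, 4.82 and 12.2 CPM in T-REx cells. The TL4-2A libraries lay below all T-REx libraries (log2 −1.62 ± 0.27, adjusted p = 5.82e-06), and the TC4-2A difference of −0.46 ± 0.22 did not pass (adjusted p = 0.12), though it did without TC4-2A 1 or T-REx 2 (−0.72 and −0.74, adjusted p = 0.0219 and 0.00906) and with no filter (adjusted p = 0.00139). SNORD3C was at 14.5, 7.6 and 4.73 CPM in TC4-2A, 4.0, 5.29 and 3.23 CPM in TL4-2A, and 59.9, 11.5 and 12.6 CPM in T-REx cells. T-REx 1 stood apart in SNORD3C. With it the log2 differences were −2.71 ± 0.41 in TL4-2A cells (adjusted p = 1.14e-06) and −1.62 ± 0.35 in TC4-2A cells (adjusted p = 0.000345), and without it −1.52 (adjusted p = 2.66e-06) and −0.42 (adjusted p = 0.125).

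SNORD3B-1 and SNORD3B-2, further U3 genes on chromosome 17, passed in no comparison. SNORD3B-2 averaged 14.4 ± 0.237 CPM in TC4-2A, 14.3 ± 0.884 CPM in TL4-2A and 14.4 ± 1.40 CPM in T-REx cells (SD, n = 3 each), and SNORD3B-1 lay between 2.26 and 5.0 CPM in all 9 libraries. A shorter gene annotated as U3 within TEX14 (ENSG00000212195.2, also on chromosome 17), chosen after its values were seen, lay on the other side of T-REx. It was at 4.70, 4.27 and 4.57 CPM in TC4-2A, 5.15, 4.81 and 5.79 CPM in TL4-2A, and 3.87, 3.99 and 4.28 CPM in T-REx cells. It rose in TL4-2A cells (log2 0.37 ± 0.14, adjusted p = 0.0245), a call lost with no filter (adjusted p = 0.0505) and without T-REx 1, T-REx 2 or TL4-2A 3 (adjusted p = 0.0671 to 0.12). Over the first 200 bases SNORD3B-1 and SNORD3B-2 are identical, SNORD3A differs from both at 1 base and SNORD3C at 2. The annotated models of these 4 genes, at 581 to 791 bases, are far longer than that shared stretch. Counts for single U3 genes can therefore depend on how reads with several matches were treated, which the sources used here do not give.

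U14, needed for ribosomal RNA processing in yeast, was represented by a pair of members. SNORD14E (ENSG00000200879.1) was at 1.80, 1.99 and 1.99 CPM in TC4-2A, 1.76, 2.73 and 1.34 CPM in TL4-2A, and 1.27, 0.741 and 1.41 CPM in T-REx cells. It rose in TC4-2A cells (log2 0.77 ± 0.26, adjusted p = 0.0222) and in TL4-2A cells (0.80 ± 0.27, adjusted p = 0.0132), where TL4-2A 3 overlapped T-REx. Neither call held without T-REx 2 (adjusted p = 0.182 and 0.121), nor did the TL4-2A call without TL4-2A 2 (log2 0.46, adjusted p = 0.233) or the TC4-2A call without TC4-2A 2 or TC4-2A 3 (adjusted p = 0.0566 and 0.0524). SNORD14A, in RPS13, gave log2 differences of −0.18 in the TC4-2A line and −0.15 in TL4-2A cells, neither of which passed (adjusted p = 0.623 and 0.639).

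Of the box H/ACA members, SNORA23 had the smallest adjusted p in both lines. It was at 21.0, 16.1 and 15.8 CPM in TC4-2A, 13.6, 13.9 and 15.9 CPM in TL4-2A, and 21.9, 23.4 and 24.7 CPM in T-REx cells. Every library of either line lay below every T-REx library. The log2 difference was −0.40 ± 0.08 in TC4-2A cells (adjusted p = 0.000113) and −0.69 ± 0.08 in TL4-2A cells (adjusted p = 1.23e-08). Neither call was lost under any alternative run.

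SNORA38 was at 2.85, 1.66 and 1.77 CPM in TC4-2A, 1.27, 1.82 and 1.28 CPM in TL4-2A, and 3.76, 2.78 and 3.03 CPM in T-REx cells. It fell by 1.11 ± 0.22 on the log2 scale in TL4-2A cells (adjusted p = 9.47e-05), with no overlap. In TC4-2A cells its difference of −0.60 ± 0.20 (adjusted p = 0.0208) was lost without TC4-2A 2, TC4-2A 3 or T-REx 1 (adjusted p = 0.126, 0.0907 and 0.125). SNORA53, which overlaps an exon of SLC25A3, was at 26.9, 31.3 and 38.4 CPM in TC4-2A, 36.1, 50.1 and 41.3 CPM in TL4-2A, and 32.5, 40.2 and 48.4 CPM in T-REx cells. All 3 lines overlapped. Its fall in TC4-2A cells (log2 −0.33 ± 0.10, adjusted p = 0.00985) did not hold without T-REx 3 (−0.18, adjusted p = 0.201) or TC4-2A 1 (−0.22, adjusted p = 0.0965).

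Box H/ACA members also rose. SNORA30 was at 1.60, 0.902 and 1.40 CPM in TC4-2A, 1.94, 1.66 and 1.95 CPM in TL4-2A, and 0.795, 0.927 and 0.991 CPM in T-REx cells, and rose in TL4-2A cells (log2 1.02 ± 0.26, adjusted p = 0.00161). SNORA2B was at 0.649, 0.855 and 1.02 CPM in TC4-2A, 1.33, 1.82 and 1.52 CPM in TL4-2A, and 0.795, 1.11 and 0.783 CPM in T-REx cells. Its rise in TL4-2A cells (0.79 ± 0.27, adjusted p = 0.0170) was lost without T-REx 1, T-REx 3 or TL4-2A 2 (adjusted p = 0.0603, 0.0693 and 0.0995). SNORA74A was at 47.5, 48.8 and 45.4 CPM in TC4-2A, 43.7, 49.7 and 46.0 CPM in TL4-2A, and 35.6, 38.8 and 47.3 CPM in T-REx cells, where T-REx 3 overlapped both. It rose by 0.22 ± 0.06 in TC4-2A cells (adjusted p = 0.00795) and 0.20 ± 0.07 in TL4-2A cells (adjusted p = 0.0131). Both calls were lost without T-REx 1 (0.14 and 0.11, adjusted p = 0.111 and 0.156) or T-REx 2 (adjusted p = 0.0528 and 0.0711), the TL4-2A call also without TL4-2A 2 (adjusted p = 0.105), and the differences grew to 0.34 and 0.32 without T-REx 3.

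**Figure D2:**
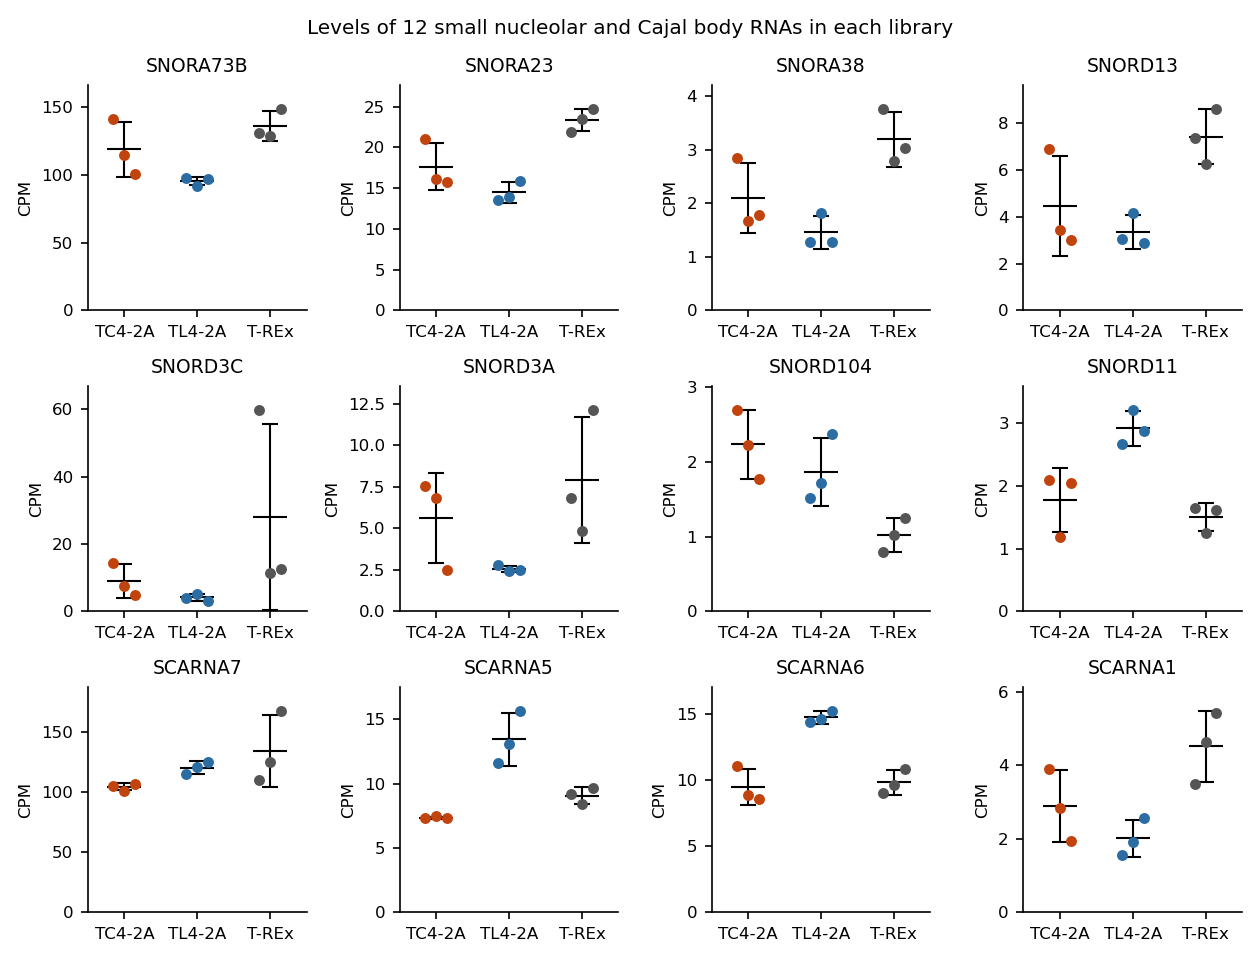
CPM of 12 members in the 3 libraries of each line, from TC4-2A to T-REx (coloured points; bars are the mean and SD of 3 libraries; each axis starts at 0 and has its own scale). SNORA23 lies below T-REx in every library of both other lines, SCARNA5 and SCARNA6 are high in TL4-2A cells, and 1 T-REx library of SNORD3C stands at 59.9 CPM.

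Of the box C/D guides, SNORD104 rose in both lines. It was at 2.70, 2.23 and 1.77 CPM in TC4-2A, 1.51, 1.71 and 2.38 CPM in TL4-2A, and 0.795, 1.02 and 1.25 CPM in T-REx cells, so that no library of either line overlapped T-REx. The log2 difference was 1.13 ± 0.24 in TC4-2A cells (adjusted p = 0.000417) and 0.86 ± 0.26 in TL4-2A cells (adjusted p = 0.00708), the second of which was lost without TL4-2A 3 (adjusted p = 0.0740). SNORD11 was at 2.10, 1.19 and 2.04 CPM in TC4-2A, 2.66, 3.21 and 2.86 CPM in TL4-2A, and 1.64, 1.25 and 1.62 CPM in T-REx cells. It rose in TL4-2A cells (0.96 ± 0.22, adjusted p = 0.000366) and differed by 0.24 ± 0.23 in TC4-2A cells (adjusted p = 0.496).

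SNORD62B was at 3.30, 2.80 and 2.53 CPM in TC4-2A, 4.06, 4.01 and 3.17 CPM in TL4-2A, and 2.44, 1.99 and 1.98 CPM in T-REx cells, and rose in TL4-2A cells (0.81 ± 0.18, adjusted p = 0.000282). SNORD83A, in the ribosomal protein gene RPL3, averaged 1.43 ± 0.0871 CPM in TC4-2A, 1.88 ± 0.223 CPM in TL4-2A and 0.962 ± 0.342 CPM in T-REx cells (SD, n = 3 each). It rose in TL4-2A cells by 0.97 ± 0.26 on the log2 scale (adjusted p = 0.0023), and the TC4-2A difference of 0.57 ± 0.27 (adjusted p = 0.106) passed only without T-REx 3 (0.89, adjusted p = 0.0287). SNORD89 was at 3.60, 2.42 and 1.40 CPM in TC4-2A, 1.88, 1.87 and 1.16 CPM in TL4-2A, and 2.55, 3.20 and 3.55 CPM in T-REx cells. The TL4-2A libraries lay below T-REx (−0.91 ± 0.24, adjusted p = 0.00232), while the TC4-2A libraries spanned the ranges of both (−0.32, adjusted p = 0.296) and passed only without TC4-2A 1 (−0.68, adjusted p = 0.0208).

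The scaRNAs took different directions. SCARNA5 (ENSG00000252010.1) was at 7.34, 7.46 and 7.31 CPM in TC4-2A, 11.6, 13 and 15.7 CPM in TL4-2A, and 9.17, 8.39 and 9.65 CPM in T-REx cells. The 3 lines did not overlap, with TL4-2A highest (log2 0.57 ± 0.10, adjusted p = 1.21e-05) and TC4-2A lowest (−0.30 ± 0.11, adjusted p = 0.0349). The fall in TC4-2A cells was lost without any 1 of the TC4-2A libraries, and without T-REx 1 or T-REx 3 (adjusted p = 0.0713 to 0.144). SCARNA6 (ENSG00000251791.1) was at 11, 8.88 and 8.54 CPM in TC4-2A, 14.3, 14.6 and 15.2 CPM in TL4-2A, and 9.01, 9.64 and 10.9 CPM in T-REx cells. It rose in TL4-2A cells (0.58 ± 0.10, adjusted p = 4.05e-06) and differed by −0.05 ± 0.10 in TC4-2A cells (adjusted p = 0.757).

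SCARNA7, the most abundant scaRNA, was at 105, 101 and 107 CPM in TC4-2A, 115, 121 and 125 CPM in TL4-2A, and 110, 125 and 168 CPM in T-REx cells. It fell in TC4-2A cells (−0.36 ± 0.07, adjusted p = 0.000123), with no overlap, by 0.17 without T-REx 3 (adjusted p = 0.00746). With DESeq2 this fall did not pass (adjusted p = 0.0801). In TL4-2A cells the difference of −0.16 ± 0.07 did not pass (adjusted p = 0.071), though it did without T-REx 1 or T-REx 2 (−0.28 and −0.21, adjusted p = 0.000473 and 0.0361) and with no filter (−0.17, adjusted p = 7.94e-05). SCARNA1, a guide for U2 snRNA, was at 3.90, 2.85 and 1.93 CPM in TC4-2A, 1.57, 1.93 and 2.56 CPM in TL4-2A, and 3.50, 4.63 and 5.43 CPM in T-REx cells. It fell in TL4-2A cells (−1.17 ± 0.21, adjusted p = 1.83e-05), and its fall in TC4-2A cells (−0.64 ± 0.19, adjusted p = 0.00845), where libraries overlapped, was lost without TC4-2A 3 or T-REx 3 (adjusted p = 0.0887 and 0.0902).

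SCARNA14 averaged 0.577 ± 0.419 CPM in TC4-2A, 0.457 ± 0.172 CPM in TL4-2A and 0.965 ± 0.229 CPM in T-REx cells (SD, n = 3 each). In TC4-2A cells the difference of −0.70 ± 0.37 did not pass (adjusted p = 0.164), though it did without TC4-2A 1 (−1.33, adjusted p = 0.0234). Its fall in TL4-2A cells (−1.03 ± 0.41, adjusted p = 0.0372) was lost without T-REx 1, T-REx 3, TL4-2A 1 or TL4-2A 3 (adjusted p = 0.07 to 0.156). SCARNA21 averaged 5.89 CPM in TC4-2A, 6.22 CPM in TL4-2A and 7.16 CPM in T-REx cells, and passed in neither comparison. The TC4-2A difference of −0.28 ± 0.12 (adjusted p = 0.0741) passed without T-REx 1 or TC4-2A 1 (−0.35 each, adjusted p = 0.041 and 0.0495). SCARNA3, SCARNA18, SCARNA18B and SCARNA20, all averaging under 1 CPM over the 9 libraries, passed in none, with log2 differences from T-REx of −0.37 to 0.12. SCARNA8 was left out by the filter on low counts and averaged 0.507 CPM in TC4-2A, 0.269 CPM in TL4-2A and 0.410 CPM in T-REx cells.

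The 2 induced lines were also compared directly. The paper detected the linear transcript in TC4-2A cells too, as a precursor, so this comparison does not separate the circular from the linear transcript. Effects of transcript and of cell line cannot be told apart either. In this comparison 6 members were higher and 7 lower in TC4-2A than in TL4-2A cells. That is 11.9% of the 109 tested, against 35.4% of all genes (17.6% higher and 17.8% lower). At 2 CPM or more 9 of 36 members passed (25.0%), against 42.9% of all genes, and below 2 CPM 4 of 73 (5.48%), against 13.3%. The median log2 difference was 0.02 over the members and 0.00 over all genes.

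SCARNA5 differed by −0.87 ± 0.10 between TC4-2A and TL4-2A cells (adjusted p = 8.96e-09) and SCARNA6 by −0.63 ± 0.10 (adjusted p = 1.19e-06), with no overlap of libraries in either. SNORD11 (−0.73 ± 0.21, adjusted p = 0.00557) and SNORA2B (−0.90 ± 0.28, adjusted p = 0.00956) were also lower in TC4-2A cells. The SNORD11 call was lost without TC4-2A 2 (adjusted p = 0.0671), and that of SNORA2B without TC4-2A 1 or TL4-2A 2 (adjusted p = 0.0564 and 0.0672). SNORA53, whose libraries overlapped, differed by −0.41 ± 0.10 (adjusted p = 0.00123), and by −0.27 without TL4-2A 2. SCARNA7 differed by −0.21 ± 0.07 (adjusted p = 0.0248), which was lost without TC4-2A 2, TL4-2A 2 or TL4-2A 3 (adjusted p = 0.0762, 0.0630 and 0.117).

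Higher in TC4-2A than in TL4-2A cells were SNORD3A (1.16 ± 0.29, adjusted p = 0.00137), SNORA73B (0.32 ± 0.06, adjusted p = 0.000122) and SNORA23 (0.29 ± 0.09, adjusted p = 0.00835). TC4-2A 1 was the highest TC4-2A library in all 3 of these RNAs. Without it the SNORA73B difference was 0.18 (adjusted p = 0.00585) and that of SNORA23 was 0.15, no longer past the threshold (adjusted p = 0.216). For SNORD13, SNORA38 and SCARNA1, which fell in both lines, the direct differences of 0.40 ± 0.21, 0.51 ± 0.24 and 0.53 ± 0.23 did not pass (adjusted p = 0.151, 0.101 and 0.0679). That of SNORD13 passed without TC4-2A 2 or TC4-2A 3 (0.56 and 0.60, adjusted p = 0.0429 and 0.0225) and with no filter (0.41, adjusted p = 0.0415). That of SNORA38 passed without TC4-2A 2 (0.66, adjusted p = 0.0414), and that of SCARNA1 without TC4-2A 3 or TL4-2A 3 (0.74 and 0.72, adjusted p = 0.00874 and 0.0343) and with no filter (adjusted p = 0.0256). The SNORD3C difference of 1.09 ± 0.49 did not pass (adjusted p = 0.0819), but did without T-REx 1, T-REx 2 or TC4-2A 3 (adjusted p = 0.000213, 0.039 and 0.024), in a fit of these 2 lines alone (adjusted p = 0.000704) and with no filter (adjusted p = 5.55e-20). SNORD62B, lower in TC4-2A by the estimate (−0.38 ± 0.17, adjusted p = 0.0747), passed without TC4-2A 1 or TL4-2A 3 (−0.49 each, adjusted p = 0.0388 and 0.0394).

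The remaining calls of that comparison were named after their values were seen. SNORA80D, at 3.25, 2.94 and 2.20 CPM in the TC4-2A line and 1.39, 2.09 and 2.44 CPM in TL4-2A cells, differed by 0.51 ± 0.20 (adjusted p = 0.0483). It was kept only without TC4-2A 3 or TL4-2A 3, and lost when any other library was left out (adjusted p = 0.0511 to 0.271, with a difference of 0.32 without TL4-2A 1). SNORA11B was at 0.55, 0.38 and 0.43 CPM in TC4-2A cells, against 0.242, 0.214 and 0 CPM in TL4-2A cells (1.51 ± 0.55, adjusted p = 0.0306). Its call was lost without TC4-2A 1, TC4-2A 3 or TL4-2A 3 (adjusted p = 0.121, 0.053 and 0.18), with a difference of 0.97 without the last. SNORA13 averaged 1.01 CPM in TC4-2A cells, against 0.522 CPM in TL4-2A cells (0.94 ± 0.35, adjusted p = 0.0322), a call lost without TC4-2A 1, TL4-2A 2 or TL4-2A 3 (adjusted p = 0.254, 0.0748 and 0.116; 0.62 without TC4-2A 1). SNORD82, in the nucleolin gene NCL, averaged 0.352 CPM in TC4-2A cells, against 0.824 CPM in TL4-2A cells (−1.20 ± 0.39, adjusted p = 0.0142), and was lost without TC4-2A 1 or TL4-2A 3 (adjusted p = 0.0617 and 0.135).

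Also chosen after its values were seen, a SNORD116 copy in MVB12B on chromosome 9 was higher in both lines than in T-REx. None of the searched box motifs was found in this copy. It was at 0.849, 0.617 and 0.967 CPM in TC4-2A, 0.908, 1.07 and 0.731 CPM in TL4-2A, and 0.265, 0.417 and 0.417 CPM in T-REx cells, with no overlap. The log2 differences were 1.11 (adjusted p = 0.0197) and 1.29 (adjusted p = 0.00436), the TC4-2A call being lost without T-REx 1, TC4-2A 1 or TC4-2A 3 (adjusted p = 0.0604 to 0.0923).

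DESeq2, run as an alternative, passed 3 members in TC4-2A against T-REx (SNORA23, SNORA74A and SNORD104), 20 in TL4-2A against T-REx, and 4 between the induced lines (SCARNA5, SCARNA6, SNORD11 and SNORA23). Over all genes it passed 21.2%, 30.1% and 24.3%. The calls it lost included large fitted differences, such as SNORD3C and SNORD13 in TC4-2A against T-REx (adjusted p = 0.104 and 0.132).

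Of the 149 members, 138 lie within a longer gene on the same strand, 122 of them in protein-coding hosts and 11 in lncRNAs. The host was also tested for 101 members. Of the 85 hosts, 43 (50.6%) passed in TC4-2A against T-REx, 42 (49.4%) in TL4-2A against T-REx and 41 (48.2%) between the induced lines. Over all genes averaging at least 2 CPM the shares were 35.4%, 52.5% and 42.9%, so the hosts' share in TL4-2A cells lay near that of all genes. The hosts had a median absolute log2 difference of 0.11 in each comparison, against 0.27 to 0.30 for the members. Most hosts had far more counts than the members, whose tested median was 1.38 CPM. Low counts widen such differences, and other genes at the members' level were not compared. Across the 101 pairs, which share libraries and in part hosts, the log2 differences of member and host had a Pearson r of 0.31 in TC4-2A against T-REx, 0.41 in TL4-2A against T-REx and 0.52 between the induced lines.

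Where a member passed, its host did not always follow. In TC4-2A cells the host passed in the same direction for 2 of 11 such members, in the other direction for 2 and not at all for 7. In TL4-2A cells these counts were 11, 2 and 10 of 23. Between the induced lines they were 6, 1 and 5 of 12.

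The pair in ATG16L1 moved with its host. ATG16L1 was at 32.6, 28.4 and 31.2 CPM in TC4-2A, 48.4, 49.5 and 49.9 CPM in TL4-2A, and 30.9, 31.0 and 29.6 CPM in T-REx cells. Its log2 difference from T-REx was 0.69 in TL4-2A cells (adjusted p = 5.89e-14), next to 0.57 for SCARNA5 and 0.58 for SCARNA6, and 0.01 in TC4-2A cells (adjusted p = 0.912). The log2 ratio of member to host differed from T-REx by −0.13 for SCARNA5 and −0.11 for SCARNA6 in TL4-2A cells, with overlapping libraries. For SCARNA5 in TC4-2A cells it differed by −0.31, with no overlap.

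Neighbouring genes differed as well. The 20 tested genes nearest to SCARNA5 and SCARNA6 on chromosome 2 had a median log2 difference of 0.39 in TL4-2A cells against T-REx, and 13 of the 20 passed the test, against 44.3% of all genes and 52.5% of those averaging at least 2 CPM. Around SNORD11, also on the long arm of chromosome 2, the median was 0.40 and 12 of 20 passed. Its host NOP58, the gene of a core protein of box C/D particles, rose by 0.35 on the log2 scale. SNORA80B and SNORD72, chosen after their values were seen, fell in TL4-2A cells by 1.05 and 1.04 on the log2 scale (adjusted p = 0.0412 and 0.0209) and had neighbours at a median of −0.67 and −0.43. The SNORA80B call was lost with no filter (adjusted p = 0.0663) and without T-REx 2 (−0.67), TC4-2A 1, TL4-2A 1 or TL4-2A 3 (adjusted p = 0.0517 to 0.301), and that of SNORD72 without T-REx 1, TL4-2A 2 or TL4-2A 3 (adjusted p = 0.0645 to 0.0842). Not every member went with its neighbours. SNORD111 and SNORD71 on chromosome 16, likewise chosen afterwards, differed by 0.08 and −0.00 in TL4-2A cells, with neighbours at a median of −0.48 and −0.45 (16 and 15 of 20 passing). Across the 109 members tested the log2 difference had a Pearson r with the neighbours' median of 0.27 in TC4-2A against T-REx, 0.28 in TL4-2A against T-REx and 0.37 between the induced lines. These are descriptions over genes that share libraries and in part neighbours. The part of such regional differences in the members' values was not tested.

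**Figure D3:**
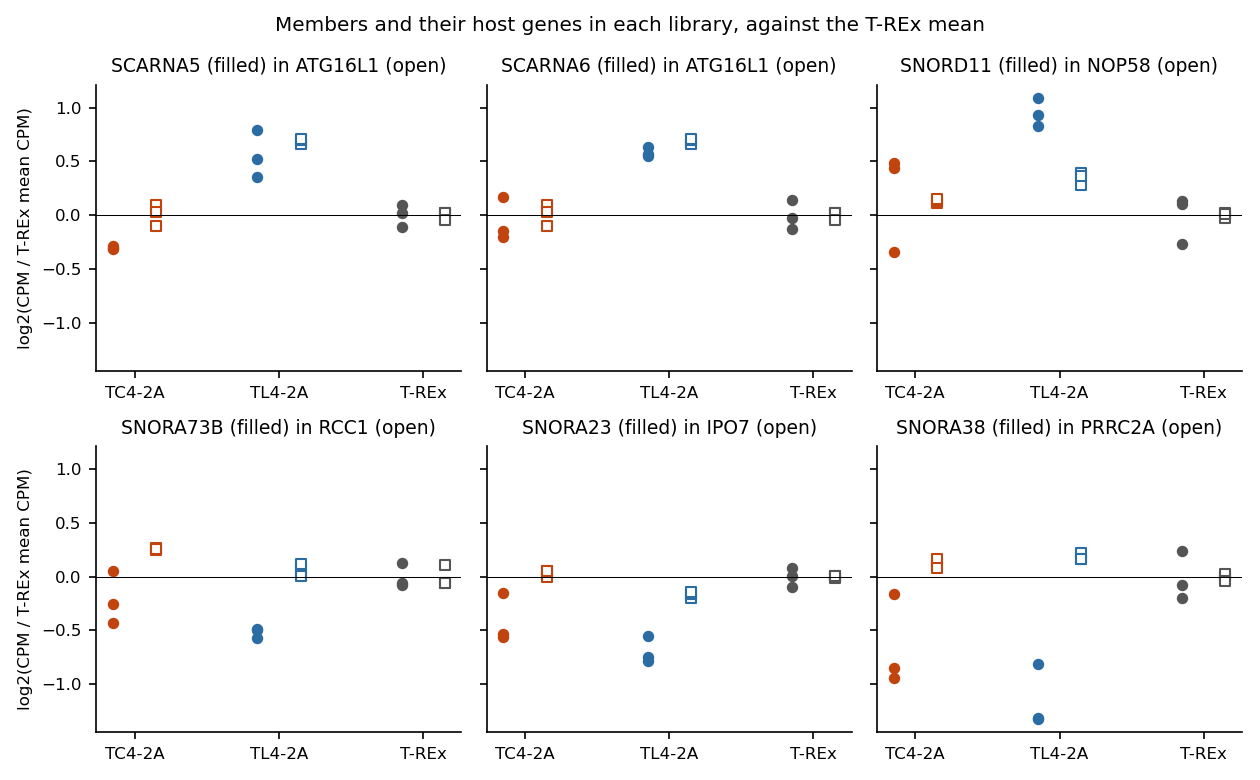
Log2 of CPM over the T-REx mean in each library for 6 members (filled circles) and their host genes (open squares), per line, from TC4-2A to T-REx. SCARNA5, SCARNA6 and their host ATG16L1 stand above 0 together in TL4-2A cells, while SNORA73B, SNORA23 and SNORA38 stand below their hosts there.

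Other members differed from their hosts in direction or only in size. RCC1, which loads Ran with GTP and holds SNORA73B, was at 182, 184 and 183 CPM in TC4-2A, 162, 166 and 154 CPM in TL4-2A, and 147, 165 and 147 CPM in T-REx cells. It rose in TC4-2A cells (log2 0.26, adjusted p = 4.52e-07) and differed by 0.07 in TL4-2A cells (adjusted p = 0.136, or 0.00763 without T-REx 2 at 0.13), whereas SNORA73B fell. The log2 ratio of SNORA73B to RCC1 differed from T-REx by −0.47 in the TC4-2A line and −0.58 in TL4-2A cells, with no overlap in either. Another same-strand gene also spans SNORA73B. RCC1 was used as host only because it had more counts, and the ratio to the other gene was not computed. Which of these genes SNORA73B is cut from was not tested.

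PRRC2A, the host of SNORA38, rose in both lines (log2 0.12 and 0.18, adjusted p = 0.00135 and 2.22e-06), and the ratio of SNORA38 to it differed by −0.74 in the TC4-2A line and −1.3 in TL4-2A cells. IPO7, a nuclear import receptor and the host of SNORA23, differed by 0.04 in TC4-2A cells (adjusted p = 0.33) and −0.17 in TL4-2A cells (adjusted p = 2.79e-06), with ratio differences of −0.45 and −0.52. PPP1R8, the host of SCARNA1, differed by −0.03 and −0.01, with ratio differences of −0.64 and −1.14. SNHG25, the lncRNA host of SNORD104, lay at 0.86 to 2.55 CPM, and its differences of 0.28 and −0.08 did not pass (adjusted p = 0.497 and 0.850).

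**Figure D4:**
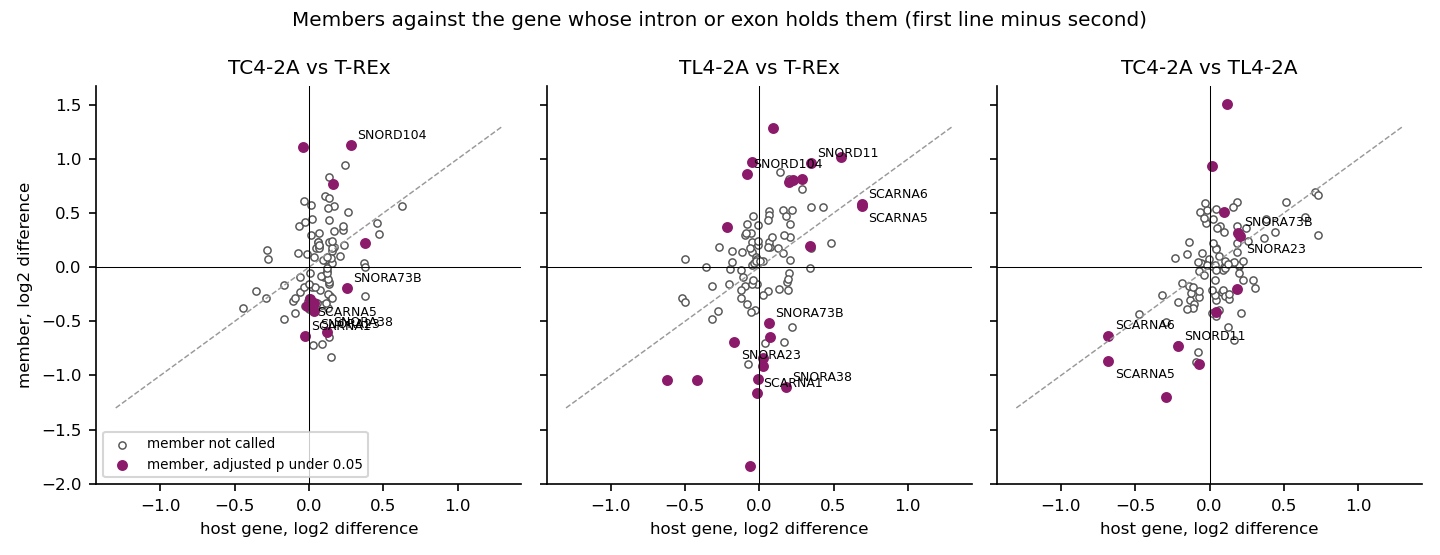
Log2 difference of each member (vertical) against that of its host gene (horizontal) for the 101 pairs in the 3 comparisons, first line minus second; filled circles are members at an adjusted p under 0.05 and the dashed line marks equal differences. SCARNA5 and SCARNA6 lie near the dashed line in TL4-2A cells, and SNORA38 and SCARNA1 lie below 0 with hosts near 0.

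The RNA levels of genes for proteins that build and mature these RNAs were read from a list of 33 genes, all tested. Protein levels were not examined here. In TC4-2A cells 13 rose and 0 fell (39.4%, against 28.8% of all genes), with a median log2 difference of 0.06. In TL4-2A cells 14 rose and 3 fell (51.5%, against 44.3%), with a median of 0.03. Between TC4-2A and TL4-2A cells 9 were higher and 7 lower (48.5%, against 35.4%). All 33 averaged above 2 CPM, and over all genes at that level the shares were 35.4%, 52.5% and 42.9%. The list's share lay slightly below this in TL4-2A cells and slightly above it in the other comparisons. SMN1 and SMN2 are on the list and rose in both lines. The transgene's exons match SMN1, whose reads SMN2 can share, so these rises can hold transgene reads.

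The mRNAs of all 4 core proteins of box C/D particles rose in TC4-2A cells, by small amounts. FBL, the methyltransferase fibrillarin, was at 746, 698 and 693 CPM in TC4-2A, 598, 620 and 602 CPM in TL4-2A, and 641, 667 and 649 CPM in T-REx cells. It rose in TC4-2A cells (log2 0.13 ± 0.03, adjusted p = 0.000825) and fell in TL4-2A cells (−0.10 ± 0.03, adjusted p = 0.00362). NOP56 rose by 0.23 and 0.15 in TC4-2A and TL4-2A cells, and NOP58 by 0.13 and 0.35. Of the mRNAs of the 4 core proteins of box H/ACA particles, 0 passed in TC4-2A cells. NOP10 rose by 0.16 in TL4-2A cells, a call lost without T-REx 1 or TL4-2A 2 (adjusted p = 0.0555 and 0.106).

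Among assembly factors, NAF1, which brings box H/ACA particles together, was at 62.0, 57.0 and 56.1 CPM in TC4-2A, 36.8, 35.6 and 34.8 CPM in TL4-2A, and 39.8, 38.1 and 38.2 CPM in T-REx cells. It rose in TC4-2A cells by 0.59 ± 0.05 on the log2 scale (adjusted p = 2.86e-12), the largest rise of the list there after SMN1, and differed by 0.71 ± 0.05 between the induced lines. In TL4-2A cells its difference of −0.12 did not pass (adjusted p = 0.0706), though it did without TL4-2A 1 or TC4-2A 1 (adjusted p = 0.0487 and 0.0451). NUFIP1, a box C/D assembly factor, rose by 0.29 in the TC4-2A line and 0.28 in TL4-2A cells. ZNHIT3 fell by 0.27 on the log2 scale in TL4-2A cells (adjusted p = 0.000183).

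Of the Cajal body and maturation genes, NOLC1, a chaperone of both particle types, rose by 0.22 in TC4-2A cells (adjusted p = 1.4e-08) and differed by −0.06 in TL4-2A cells (adjusted p = 0.073). Coilin (COIL) and WRAP53, which carries scaRNAs to Cajal bodies, passed in neither line. Among the enzymes that trim small RNAs, EXOSC10, a nuclease of the nuclear exosome, was at 165, 167 and 168 CPM in TC4-2A, 120, 118 and 116 CPM in TL4-2A, and 160, 162 and 164 CPM in T-REx cells. It fell in TL4-2A cells by 0.46 ± 0.03 on the log2 scale (adjusted p = 1.34e-14). DIS3 and TOE1 rose there by 0.40 and 0.42, and PARN by 0.16, while XRN2 and MTREX differed by 0.01 and −0.01.

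**Figure D5:**
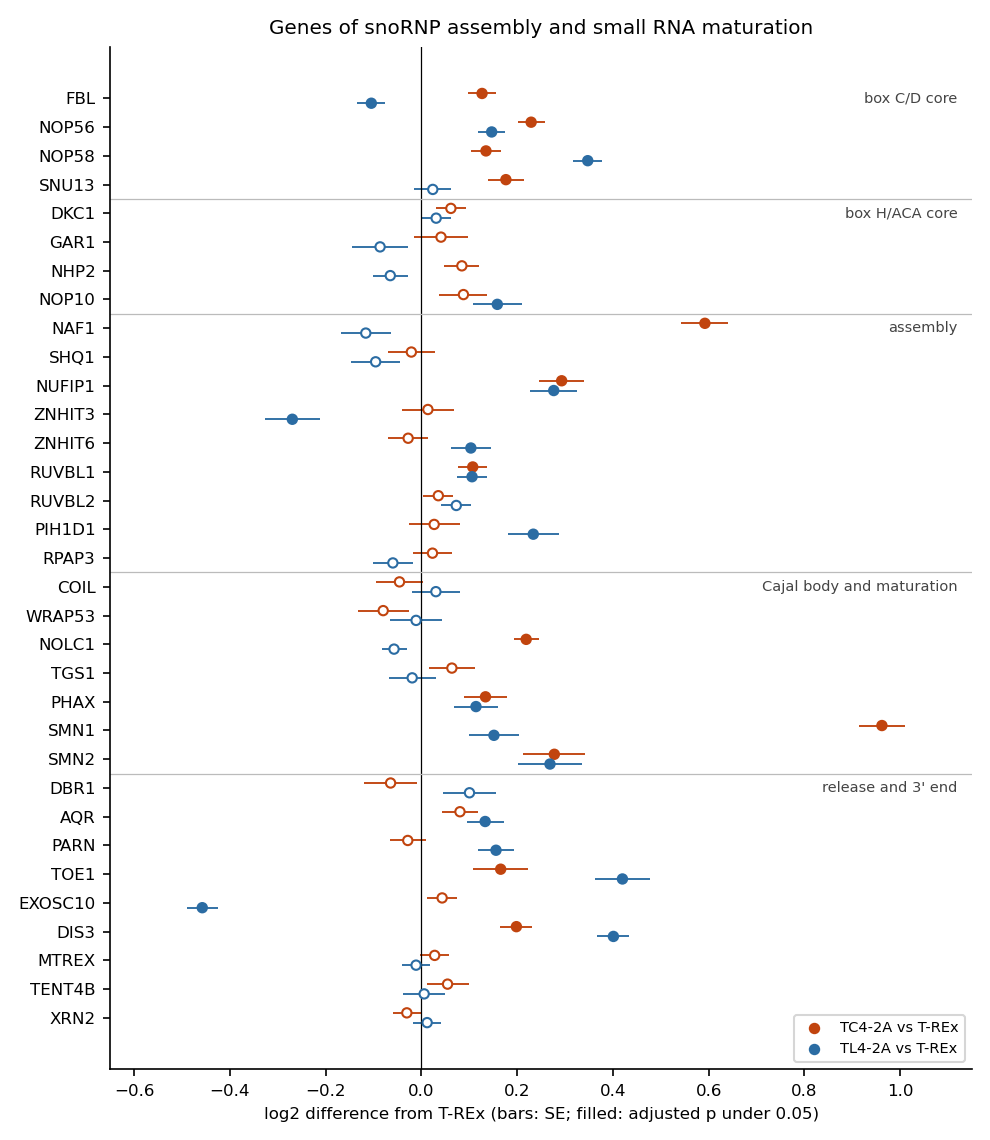
Log2 difference from T-REx of the 33 listed genes in either induced line (bars are the SE; filled points have an adjusted p under 0.05), by role from top to bottom. NAF1 and SMN1 stand furthest to the right in TC4-2A cells, and EXOSC10 furthest to the left in TL4-2A cells. The transgene's exons match SMN1, so its counts can hold transgene reads.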

How the data were processed

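Members, gene lists and comparisons were chosen with earlier results of these data known. The authors deposited raw counts per gene, made with HISAT2 on GRCh38 and featureCounts with GENCODE v33 as their methods state. For these tools no version, strand setting or multi-mapping option is given in the sources used here. The libraries came from a directional, paired-end kit after rRNA depletion. The authors' tables of fold changes and p-values were not used.

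Of 60651 table lines, 3 damaged ones were left out. Biotypes, hosts and sequences came from GENCODE v44 by Ensembl ID without version, and 60462 of 60648 IDs matched (99.7%). A host was the same-strand gene that spans a member, or the one with the most counts where several did. CPM were scaled on the summed counts of the tested genes in each library, multiplied by its TMM factor. All 9 libraries entered 1 fit by edgeR 4.0.16 (R 4.3.3) with filterByExpr, TMM factors (0.991 to 1.01) and the quasi-likelihood test, 2-sided, adjusted by Benjamini-Hochberg over 19473 genes, threshold 0.05. The SE is the log2 difference over the root of F. The test was checked on simulated counts. Log2 ratios of member to host used CPM plus 0.05. Neighbours were the 10 tested genes on each side.

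Genes named were the 12 highest per kb, the 6 largest rises and falls per comparison (called, at least 1 CPM, no overlap of libraries), all SCARNA genes, the processing snoRNAs, their hosts, and the list of 33 factors. Alternatives were DESeq2 1.42.0, RLE scaling, no filter, at least 10 counts in every library, fits of 2 lines, a replicate block, leaving out each library, and, chosen after seeing the data, a division at 2 CPM.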

Additional observations from a re-analysis of the deposited data

Results flagged for a closer look

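For 13 members the effects against T-REx in the TC4-2A and the TL4-2A line differed by the direct test of the 2 lines. The effect was lower in TC4-2A cells, on the log2 scale, for SNORD82 (−1.20), SNORA2B (−0.90), SCARNA5 (−0.87), SNORD11 (−0.73), SCARNA6 (−0.63), SNORA53 (−0.41) and SCARNA7 (−0.21). It was higher in TC4-2A cells for SNORA11B (1.51), SNORD3A (1.16), SNORA13 (0.94), SNORA80D (0.51), SNORA73B (0.32) and SNORA23 (0.29). SCARNA5 was the only member of the 13 that passed against T-REx in opposite directions, −0.30 in the TC4-2A line and 0.57 in TL4-2A cells. Its TC4-2A call was lost with DESeq2 (adjusted p = 0.115), without any single TC4-2A library, and without T-REx 1 or T-REx 3. Of the 13 direct calls, DESeq2 kept only SCARNA5, SCARNA6, SNORD11 and SNORA23. Leaving out a single library lost those of SNORD82, SNORA2B, SNORD11, SCARNA7, SNORA11B, SNORA13, SNORA80D and SNORA23 in at least 1 case.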

How the results depend on the processing

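DESeq2 moved the number of members passing most, to 3 in TC4-2A against T-REx (2 higher and 1 lower) and to 4 between TC4-2A and TL4-2A (1 higher and 3 lower), against 13 with edgeR in each. It gave 20 in TL4-2A against T-REx, against 26. The cause was not tested. Leaving out each library in turn gave 9 to 17 members in TC4-2A against T-REx, 23 to 26 in TL4-2A against T-REx and 10 to 17 between the induced lines. For the 33 factor genes it gave 11 to 14, 13 to 18 and 14 to 16, and DESeq2 gave 12, 13 and 15, against 13, 17 and 16 with edgeR. RLE scaling, the other filters and fits of 2 lines kept each count within 1.5 times. Over 264 single-gene results, 3922 values under alternatives held 0 reversals, 145 lost calls and 57 gained ones, and 77 of 118 called results stayed called throughout. Libraries with the same number did not deviate together (r of −0.029 to 0.030), so the numbers do not pair them. With a replicate block 14 members passed in TC4-2A against T-REx, 27 in TL4-2A against T-REx and 14 between the induced lines, and 13, 17 and 16 factor genes. Of the single-gene calls the block changed 3, SCARNA7 in TL4-2A against T-REx (−0.15, adjusted p = 0.0354, now passing), SNORD3C between the induced lines (1.04, adjusted p = 0.00248, now passing) and SNORA80B in TL4-2A against T-REx (−1.04, adjusted p = 0.0525, no longer passing). Most members had few counts, with a median of 1.38 CPM, which limits small differences.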
